A study of Mus musculus with 816 samples.

Results

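The genes for 6 inhibitors of cytokine signalling, Socs1, Socs2, Socs3, Cish, Usp18 and Pias1, were followed by name through every condition of a microglial stimulus panel and through microglia taken from mice. The 6 genes were found by symbol in both expression tables, among 45581 genes listed for the cultures and 29858 listed for the mice. The 784 cultures were neonatal mouse microglia bought from a supplier and grown in 96-well plates, with a single agent or a combination added for 4, 24 or 72 h. They fell into 98 conditions, of which 97 held more than 2 cultures, and untreated wells existed at 24 h (n = 40) and 72 h (n = 25) but not at 4 h. Doses were, in µg/µl, 0.0008 for IFNa, 0.0001 for IFNb, IFNg and TGFb, 5e-05 for IL4, IL13 and IL10, 5e-06 for GMCSF, 4e-06 for TNFa, 0.0001 for LPS_hi, 1e-05 for LPS_lo, 0.001 for P3C and 0.2 for IC. IC is polyIC, a double-stranded RNA analogue sensed by TLR3, P3C is a synthetic lipopeptide sensed by TLR2, and LPS is bacterial lipopolysaccharide sensed by TLR4. For combinations the labels give the dose of the first agent only. The mice were female C57BL/6 animals aged 2 months, given LPS at 2 mg/kg or PBS into the peritoneum 4 h before isolation (4 and 4), and male naive C57BL/6 animals aged 2 months (n = 11) or 22 months (n = 13). Their microglia were enriched from whole perfused brain with magnetic beads against CD11b, a protein that monocytes and neutrophils also carry.

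Values are CPM, reads of a gene relative to all mapped reads, scaled to the same total in each library, from 3′ end libraries. The depth implied by the smallest step in each library, an estimate since not every value was a whole multiple of it, ran from 1000000 to 38200000 reads in the cultures (median 4670000) and from 2360000 to 7780000 in the mice (median 4080000). Of 6 microglial markers, 5 had a median above 5 CPM in the cultures and all 6 did in each group of mice. The cultures came from 3 lots on 10 plates. Untreated 24 h wells of 1 plate (n = 10) stood apart: mean Socs1, Socs3 and Usp18 were 28.5, 41.3 and 29.3 CPM there, against 5.29 to 8.44, 3.09 to 12.2 and 6.84 to 19.1 CPM on the other 5 plates. Treated wells of that plate differed too. Mean Socs3 with CCL2, GABA, estradiol, minocycline, rapamycin or resveratrol was 26.95 to 43.95 CPM there and 2.87 to 15.5 CPM on other plates. With LPS_lo it was lower there (200.2 against 621.3 CPM). One 24 h IC culture had a profile close to that of P3C (r = 0.955 with the P3C mean, the next IC culture 0.918). The 3 TNFa cultures of 72 h also stood apart, with 27.7% of all genes called. Where leaving out the wells of that plate, the IC culture or a TNFa culture changed a call, this is said beside the result.

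Cytokine receptors of this class carry JAK kinases, which phosphorylate STAT proteins. STAT dimers then enter the nucleus and bind GAS elements, and after type I interferon ISRE elements are bound as well. SOCS1 and SOCS3 inhibit the kinases directly, CISH and SOCS2 bind phosphorylated receptors through an SH2 domain and act mainly on STAT5 pathways, USP18 removes ISG15 from proteins and also blocks the type I interferon receptor subunit IFNAR2, and PIAS1 is a SUMO ligase that restrains DNA binding by STAT proteins. All but the last are known as genes induced by the pathways they restrain. In microglia, IL10 signals mainly through STAT3, IL4 and IL13 through STAT6 and GM-CSF through STAT5.

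On GRCm38 with the GENCODE vM21 annotation, the members are protein-coding genes at chr6:121245906-121270917 (Usp18, plus strand), chr9:62878368-62987924 (Pias1, minus), chr9:107296026-107302784 (Cish, plus), chr10:95385362-95417180 (Socs2, minus), chr11:117966079-117970047 (Socs3, minus) and chr16:10782240-10785536 (Socs1, minus). RefSeq promoter windows for GRCm38.p6, 250 bases before the start and 30 after it, were matched for Cish, Socs3, Socs1 and Pias1. They were searched on both strands for the GAS core TTCNNNGAA, which 7.83% of 32851 promoters of this length hold, and for the ISRE-type pair GAAANNGAAA, which 3.28% hold. The windows of Cish, Socs3 and Socs1 are printed because these genes, each of which holds a match, account for most of the calls below. Capitals mark the matches, and sequences read 5′ to 3′ on the gene's strand.
Cish, chr9:107296409-107296688, plus strand: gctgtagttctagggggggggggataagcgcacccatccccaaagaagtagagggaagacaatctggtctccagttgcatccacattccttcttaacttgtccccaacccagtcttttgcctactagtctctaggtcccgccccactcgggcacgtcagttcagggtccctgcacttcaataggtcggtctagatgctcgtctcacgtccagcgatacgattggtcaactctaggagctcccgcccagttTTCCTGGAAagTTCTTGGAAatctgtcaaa
Socs3, chr11:117969337-117969616, minus strand: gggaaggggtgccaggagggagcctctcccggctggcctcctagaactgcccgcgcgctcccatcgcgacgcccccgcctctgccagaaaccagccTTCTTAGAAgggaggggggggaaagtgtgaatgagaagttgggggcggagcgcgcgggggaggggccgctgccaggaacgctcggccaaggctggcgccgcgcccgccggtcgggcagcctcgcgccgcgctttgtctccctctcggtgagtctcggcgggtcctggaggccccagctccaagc
Socs1, chr16:10785507-10785786, minus strand: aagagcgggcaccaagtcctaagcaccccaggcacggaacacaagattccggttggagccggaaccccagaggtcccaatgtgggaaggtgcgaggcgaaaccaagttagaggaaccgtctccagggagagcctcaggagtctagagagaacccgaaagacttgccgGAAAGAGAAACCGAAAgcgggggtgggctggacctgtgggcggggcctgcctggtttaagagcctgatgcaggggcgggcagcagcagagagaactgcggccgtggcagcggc
Counting from the start of the transcript, the Cish matches were TTCCTGGAA at bases 1 to 9 and TTCTTGGAA at bases 12 to 20. The Socs3 match, TTCTTAGAA, lay at bases -154 to -146. Socs1 held GAAAGAGAAA at -83 to -74 and GAAACCGAAA at -77 to -68, which overlap. The Pias1 window held neither motif. These are matches of letters in short windows and not measured binding.

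At 24 h most cytokines raised some of the 6 genes, in part the same ones. IFNa and IFNb raised Usp18 and Socs1, IFNg raised Socs1 most and also Socs3 and Usp18, and IL10 raised Socs3 alone. IL4 and IL13 raised Socs2, Cish and Socs1, and GMCSF raised these and Socs3. IFNa also raised Socs3, a call lost with culture plate as a term, as was that of GMCSF for Socs1. TGFb and TNFa raised none. Pias1 passed the threshold with none of the 13 stimuli, its log2 differences lying between -0.43 and 0.49. Differences are log2(CPM + 1) of the stimulus minus untreated wells of the same time, a scale that understates changes of genes near 0. They are given with the standard error (SE) and an adjusted p from limma, Benjamini-Hochberg over 16942 genes, and a gene was called at an adjusted p under 0.05 with a difference of at least 1. Over the 13 stimuli, 30 of 78 tests were called higher and 5 lower. In the same order of stimulus, the share of all genes called was 11.1% for IFNa (3 of 6 members called), 7.27% for IFNb (3), 8.07% for IFNg (4), 2.74% for IL4 (4), 1.33% for IL13 (4), 0.773% for IL10 (1), 2.11% for GMCSF (4), 1.78% for TGFb (1), 2.97% for TNFa (0), 16.2% for LPS_hi (3), 15.1% for LPS_lo (4), 20.2% for P3C (2) and 8.98% for IC (2). Replicates are separate wells, and nothing in the labels says whether they are separate cell preparations, so p-values measure the spread between wells. That spread was estimated for each gene over all 98 conditions together, and can differ from the spread of the wells compared. Overlap of groups, here and below, describes the members only and was not counted over all genes. In bulk RNA a change in the number of cells that express a gene and a change in RNA per cell cannot be told apart.

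**Figure D1:**
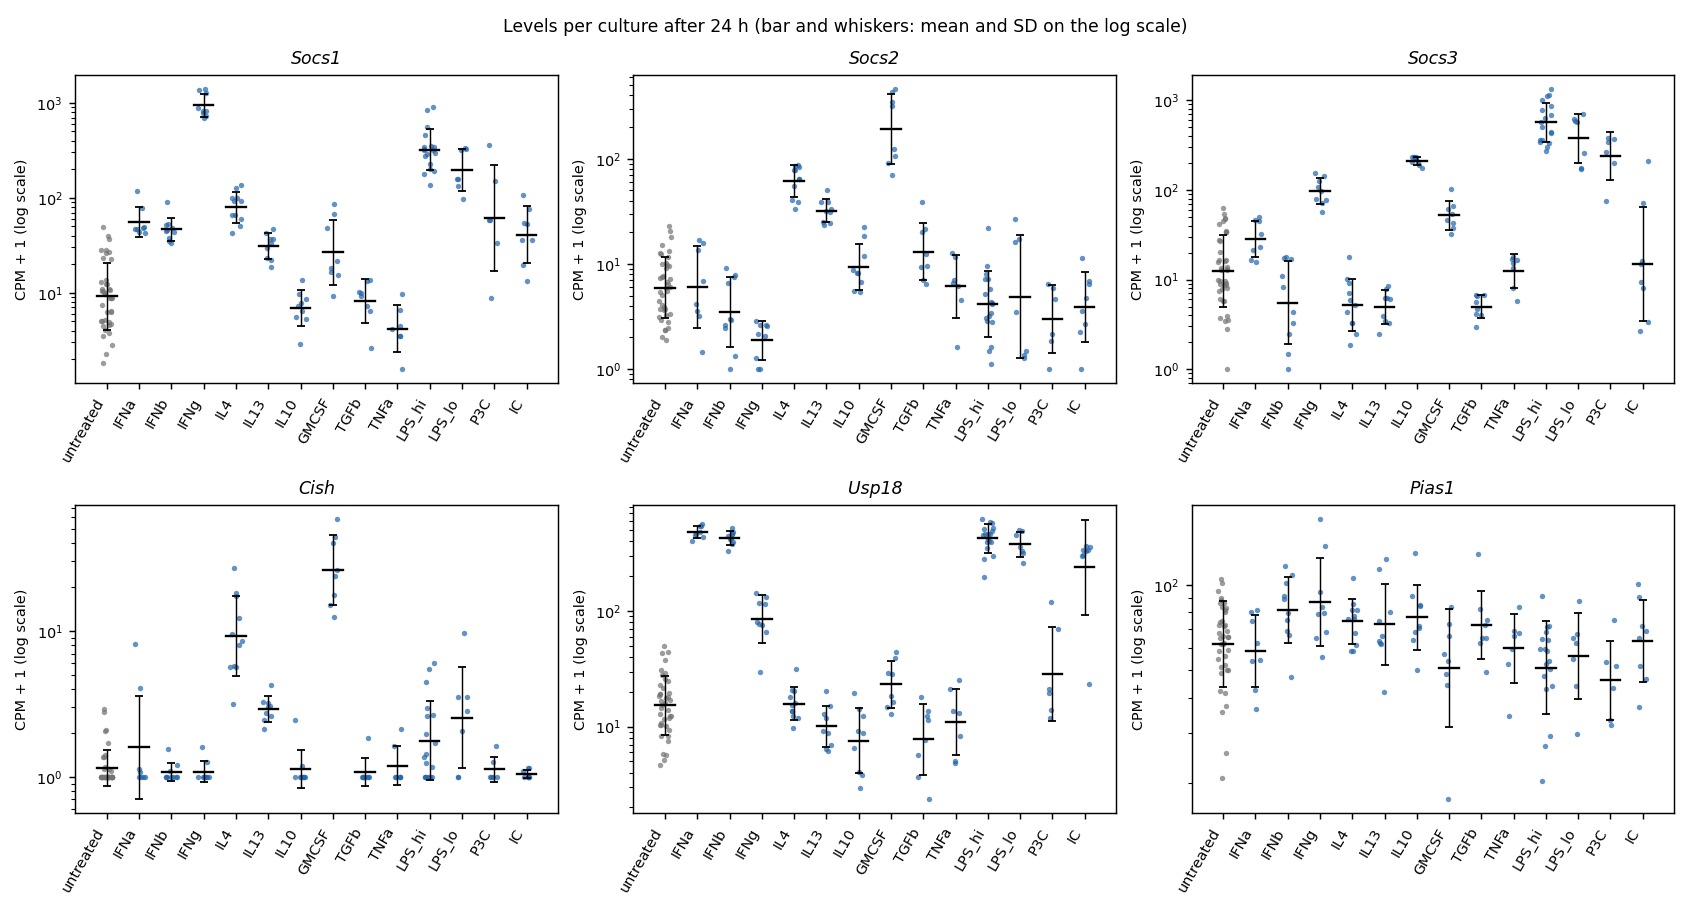
Level of each of the 6 genes in every 24 h culture, as CPM + 1 on a log axis, for untreated wells and the 13 stimuli. Points are cultures, and the bar and whiskers are the mean and SD on the log scale. All 9 IFNg cultures lie above every untreated culture for Socs1, all 9 IL10 cultures do so for Socs3, all 8 GMCSF cultures do so for Socs2 and Cish, and all IFNa and IFNb cultures do so for Usp18.

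Socs1, the JAK inhibitor best known for restraining IFNg, had the widest response. Untreated wells ranged from 0.801 to 48.5 CPM with a median of 8.28, and IFNg cultures from 688.5 to 1411 CPM with a median of 825.0. The groups did not overlap. The difference was 6.67 ± 0.42 (SE, adjusted p = 8.45e-46, n = 9 and 40), the largest of any stimulus at this time. LPS_hi came next, with 363.1 ± 209.8 CPM (SD, n = 18) and a difference of 5.12 ± 0.323, followed by LPS_lo with 216.5 ± 104.0 CPM (n = 7) and 4.41 ± 0.466. IL4 gave 83.9 ± 30.6 CPM (SD, n = 11), a difference of 3.11 (adjusted p = 2.1e-12 by limma). IFNa, IFNb, P3C, IC and IL13 raised it by 2.59, 2.33, 2.73, 2.14 and 1.75. Each of these 5 groups overlapped the untreated wells. GMCSF was called with a difference of 1.53, but with culture plate as a term its adjusted p was 0.0816 and the difference 1.10. IL10, TGFb and TNFa cultures had mean levels of 6.48, 8.04 and 3.79 CPM and were not called.

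Usp18, the ISG15 protease, followed the interferons. It ranged from 3.62 to 49.3 CPM in untreated wells (median 14.7), from 399.5 to 565.6 CPM with IFNa (median 472.0) and from 328.9 to 518.0 CPM with IFNb (median 433.8). Both interferons lay far above every untreated well. The differences were 4.99 ± 0.366 for IFNa (adjusted p = 1.72e-34) and 4.81 ± 0.334 for IFNb (adjusted p = 2.92e-38, both limma). LPS_hi and LPS_lo gave 440.4 ± 111.8 and 386.6 ± 95.6 CPM (SD, n = 18 and 7), differences of 4.80 and 4.63. Of the 8 IC cultures, 7 had between 300.5 and 362.4 CPM, and the culture that resembled P3C had 22.5 CPM. The IC difference was 3.97 ± 0.366 with all 8 and 4.45 without that culture. IFNg cultures reached 91.9 ± 36.2 CPM (SD, n = 9), a difference of 2.48 that was smaller than that of either type I interferon, as tested below. P3C gave 41.5 ± 43.2 CPM, a difference of 0.91, which was not called with all untreated wells and was called at 1.21 (adjusted p = 0.0218, limma) once the 10 untreated wells of the plate that stood apart were left out. IL4, IL13, IL10, GMCSF, TGFb and TNFa had differences between -1.01 and 0.60 and none was called.

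Socs3, which binds the gp130 receptor and JAKs and restrains IL6-type signals, was raised by LPS_hi, LPS_lo, P3C, IL10, IFNg and GMCSF, and by IFNa in a call that depended on the plate. IC, the ligand of TLR3, was not called (41.2 ± 72.1 CPM, difference 0.26, adjusted p = 0.817, limma, n = 8). Untreated wells ranged from 0 to 61.8 CPM (median 11.8), and LPS_hi cultures from 274.7 to 1354 CPM (median 541.3), without overlap. The difference was 5.51 ± 0.286 (adjusted p = 1.2e-63, limma). IL10 cultures were tightly grouped, from 176.1 to 234.0 CPM with a median of 220.9, and lay above every untreated well. That difference was 4.10 ± 0.372 (adjusted p = 3.57e-22, n = 9 and 40), and Socs3 was 1 of 131 genes called with IL10. LPS_lo (440.8 ± 230.9 CPM) and P3C (270.5 ± 118.1 CPM) gave 4.93 and 4.27, IFNg (101.0 ± 34.1 CPM) gave 2.96 and GMCSF (54.4 ± 22.6 CPM) gave 2.06. Calls close to the threshold depended on the plate. IFNa was called higher by 1.19 and IFNb, IL4, IL13 and TGFb lower, by differences of -1.18, -1.26, -1.35 and -1.32. With plate as a term these 5 became 0.40, -0.73, -0.33, -0.37 and -0.33 (adjusted p = 0.505, 0.127, 0.983, 1.0 and 1.0, limma), and the 4 lower calls were also lost when the untreated wells of the plate that stood apart were left out.

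Socs2, known for restraining growth hormone and other STAT5 signals, was raised by 3 cytokines only among the 13 stimuli. Untreated wells ranged from 0.883 to 22.0 CPM (median 4.99), GMCSF cultures from 69.5 to 463.5 CPM (median 218.4), and IL4 cultures from 32.4 to 85.7 CPM (median 63.5). Neither overlapped untreated wells. The differences were 5.01 ± 0.444 for GMCSF (adjusted p = 9.02e-24), 3.36 ± 0.39 for IL4 (adjusted p = 2.53e-14) and 2.44 ± 0.423 for IL13 (adjusted p = 8.68e-06, all limma). IL13 cultures, from 22.6 to 49.3 CPM, also lay above every untreated well. IFNg lowered it: 9 cultures between 0 and 1.90 CPM gave a difference of -1.66 ± 0.423 (adjusted p = 0.0017, limma), overlapping the lowest untreated wells. With a pseudocount of 5 this difference was -0.81, under the minimum for a call.

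Cish, a classic STAT5 target that competes with STAT5 for receptor docking sites, was close to undetected without stimulus and was listed at 0 in 28 of 40 untreated wells, the highest having 1.93 CPM. GMCSF cultures ranged from 11.5 to 57.7 CPM (median 24.0), a difference of 4.51 ± 0.251 (adjusted p = 2.98e-55, limma). IL4 cultures ranged from 2.15 to 26.1 CPM (median 7.57), a difference of 3.00 ± 0.22 (adjusted p = 3.07e-34, limma). Every culture of both cytokines was above every untreated well. No untreated well reached the filter of 5 CPM, so Cish was tested only because stimulated cultures, these among them, exceeded it. Adjusted p-values of Cish against cultures with little of it, here and below, are therefore no independent support. The differences rest on the levels. IL13 (1.12 to 3.24 CPM) and LPS_lo (0 to 8.64 CPM) were called at 1.34 and 1.15, and both overlapped untreated wells. Both calls were lost with a pseudocount of 5 (0.42 and 0.43), and that of LPS_lo also with library pool as a term (0.87). With LPS_hi the mean was 1.17 CPM and the difference 0.62, which was not called. Interferons, IL10, P3C, IC, TGFb and TNFa had differences between -0.13 and 0.47, and none was called.

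Cytokines were then compared with each other directly at 24 h, and IFNg with the type I interferons at 72 h also, in 11 comparisons over which 3.91% of all gene tests were called and 16 of the 66 member tests were called higher and 8 lower. IFNg exceeded IFNa by 4.07 ± 0.553 for Socs1 and by 1.77 ± 0.49 for Socs3, and was below it by -2.51 ± 0.459 for Usp18 (adjusted p = 1.29e-10, 0.00719 and 6.05e-06, limma). Against IFNb the same 3 genes gave 4.33, 4.14 and -2.33, all called. At 72 h they gave 3.58, 4.95 and -3.38 against IFNa and 2.44, 4.56 and -3.38 against IFNb, all called in the fit of all conditions. With only the conditions compared in the fit, Socs1 and Usp18 were not called at 72 h against IFNa (adjusted p = 0.0633 and 0.0551) or IFNb (adjusted p = 0.193 and 0.183, all limma). The Socs1 difference from IFNb at 72 h was also not called with a pseudocount of 0.25 (adjusted p = 0.075) or without 1 of the 4 IFNb cultures (replicate 2, 2.33, adjusted p = 0.0597). In all 4 of these comparisons IFNg gave more Socs1 and Socs3 and the type I interferon more Usp18. Socs2 was lower with IFNg than with IFNa at 24 h (-1.68, adjusted p = 0.0344, limma), a call lost with no filter on low values (adjusted p = 0.0558), with the adjustment made over these comparisons together (0.0602) and with a pseudocount of 5 (-0.86, adjusted p = 0.0778). IFNg and IFNa shared no plate at either time, and with plate as a term all of their called differences stayed called, with Usp18 at -1.71 and Socs3 at 3.54 at 24 h. IFNa and IFNb differed in Socs3 by 2.37 ± 0.478, but they shared no 24 h plate and the difference with plate as a term was 1.13 (adjusted p = 0.247, limma). For Usp18 their difference was 0.18 with a 95% interval of -0.70 to 1.05, and for Socs1 it was 0.26, with an interval of -0.80 to 1.32.

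IL4 and IL13 use a shared receptor chain, IL4RA, and were applied at the same dose. Cish was higher with IL4 by 1.66 ± 0.291 (adjusted p = 2.45e-05, limma, 10.0 ± 7.19 against 1.97 ± 0.608 CPM), a call lost with a pseudocount of 0.25 (adjusted p = 0.157). Socs1 was 83.9 against 31.5 CPM, a difference of 1.36 with an interval of 0.36 to 2.36, and Socs2 was 63.3 against 32.1 CPM, a difference of 0.93 with an interval of -0.08 to 1.94. Neither was called. GMCSF exceeded IL4 by 1.51 for Cish, 1.65 for Socs2 and 3.32 for Socs3, but the 2 shared no 24 h plate. With plate as a term these differences were 1.25, 1.74 and 1.60 and stayed called. The Socs2 call was lost with library pool as a term (adjusted p = 0.0653), with no filter on low values (0.0565), with a pseudocount of 0.25 (0.139) and with the adjustment over these comparisons together (0.0507, all limma). Socs1 was lower with GMCSF than with IL4 by -1.58 and not called, and was called with plate (-2.35, adjusted p = 0.000291) or library pool (-2.12, adjusted p = 0.000575, both limma) as a term. IL10 exceeded IL4 by 5.35 for Socs3 and fell below it by -3.53 for Socs1, -2.70 for Socs2 and -3.03 for Cish. No member was called higher with both IL10 and IL4 at this time. LPS_hi exceeded P3C by 3.89 ± 0.445 for Usp18 (adjusted p = 4.94e-15, limma) and by 2.39 ± 0.537 for Socs1, while Socs3 differed by 1.24 with an interval of 0.31 to 2.17 and was not called (adjusted p = 0.0729, limma). It was called with plate (1.26, adjusted p = 0.0471) or library pool (1.80, adjusted p = 0.000706) as a term, with only the conditions compared (adjusted p = 0.017) and with a pseudocount of 5 (adjusted p = 0.0038, all limma). No member was called between IC and IFNb or, without such a term, between LPS_hi and LPS_lo. Cultures of LPS_lo came from 2 of the 6 plates that held LPS_hi, and Socs3 was higher with LPS_hi by 0.58, by 1.56 with plate as a term and by 1.51 with library pool as a term, the last 2 being called (both adjusted p = 0.0342, limma). For Usp18, without such a term, the interval was -0.65 to 1.00 for LPS_hi against LPS_lo and -1.72 to 0.03 for IC against IFNb.

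**Figure D2:**
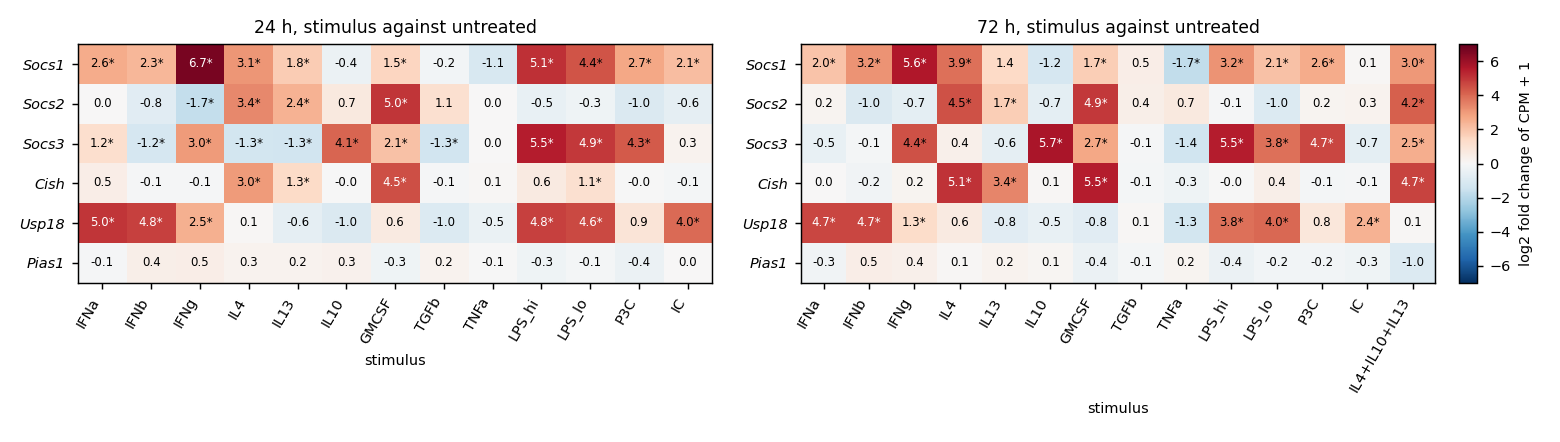
Log2 differences of CPM + 1 from untreated wells of the same time, for 6 genes (rows) and the stimuli (columns) at 24 h (left) and 72 h (right). Red is higher and blue lower, an asterisk marks an adjusted p under 0.05 with a difference of at least 1 in limma, and the row of Pias1 has no asterisk.

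At 72 h IFNg and IL4 again raised Socs1, IL10 Socs3, GMCSF and IL4 Socs2 and Cish, and type I interferons Usp18, with 30 of 84 tests called higher and 1 lower over 14 stimuli. The share of all genes called was 7.47% for IFNa (2 members called), 4.44% for IFNb (2), 12.8% for IFNg (3), 3.55% for IL4 (3), 3.58% for IL13 (2), 3.67% for IL10 (1), 4.53% for GMCSF (4), 1.13% for TGFb (0), 27.7% for TNFa (1), 16% for LPS_hi (3), 8.12% for LPS_lo (3), 7.37% for P3C (2), 8.78% for IC (1) and 7.4% for IL4+IL10+IL13 (4). Pias1 was again not called, with differences from -0.95 to 0.49. The 72 h cultures of IL4, IFNb, TGFb and TNFa came from 1 plate each.

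Among the SOCS genes, Socs1 with IFNg was at 364.7 ± 306.1 CPM (SD, n = 6, 50.4 to 757.5) against 7.41 ± 9.33 CPM in untreated wells (n = 25), a difference of 5.60 ± 0.517. Socs1 also rose with IL4 (3.88), IFNb (3.16), LPS_hi (3.15), IL4+IL10+IL13 (3.02), P3C (2.60), LPS_lo (2.07), IFNa (2.02) and GMCSF (1.74). The GMCSF call was lost with only the conditions compared (adjusted p = 0.102, limma). IL13 was not called for Socs1 (1.41). It was called with plate (1.80, adjusted p = 0.00439) or library pool (2.02, adjusted p = 0.000701) as a term and without shallow cultures (1.88, adjusted p = 0.0312, all limma). The one lower Socs1 call, with TNFa, was -1.71 ± 0.695 (adjusted p = 0.0483, limma, 3 cultures). That call was lost without any one of the 3 cultures, and the sign turned to 0.37 with library pool as a term. Socs3 with IL10 lay between 136.0 and 245.9 CPM (n = 6), against at most 18 CPM in untreated wells, a difference of 5.72 ± 0.458 (adjusted p = 4.13e-28, limma). LPS_hi, P3C, IFNg, LPS_lo, GMCSF and IL4+IL10+IL13 raised Socs3 by 5.52, 4.69, 4.43, 3.85, 2.72 and 2.52. Socs2 rose with GMCSF (4.95), IL4 (4.48), IL4+IL10+IL13 (4.21) and IL13 (1.75, adjusted p = 0.0696 with plate as a term, limma).

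Cish at 72 h reached 57.6 ± 21.3 CPM with GMCSF (n = 7), and 27.2, 40.5 and 58.3 CPM in the 3 IL4 cultures, against at most 2.37 CPM in 25 untreated wells. The differences were 5.51 ± 0.277 and 5.07 ± 0.396, with 4.74 for IL4+IL10+IL13 and 3.43 for IL13. No untreated well reached the range of these 4 groups. Usp18 rose with IFNa (4.68), IFNb (4.67), LPS_lo (4.00), LPS_hi (3.84), IC (2.42) and IFNg (1.29). The IFNg call was lost without shallow cultures (adjusted p = 0.0722), with only the conditions compared (0.242) and with a pseudocount of 0.25 (0.0782, all limma). With TNFa it was not called (-1.29), but was without 1 of the 3 TNFa cultures (replicate 1, -2.29, adjusted p = 0.00697, limma). Its levels were 333.8 ± 89.2 CPM with IFNa, 321.9 ± 17.3 with IFNb and 78.4 ± 35.1 with IC (SD, n = 7, 4 and 6), against 18.5 ± 20.7 in untreated wells.

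The change of a response between 24 and 72 h was tested as the 72 h difference minus the 24 h difference, and 4.03% of all gene tests were called over 13 stimuli. Of 78 member tests 2 were called higher and 2 lower, a share near that of all genes, so the number of calls does not set the members apart. Cish grew with IL4 by 2.07 ± 0.453 (adjusted p = 0.00249) and with IL13 by 2.09 ± 0.379 (adjusted p = 9.89e-05, both limma), from means of 10.0 and 1.97 CPM to 42.0 and 14.1 CPM. For IL4 the 3 cultures of 72 h came from 1 plate, and the call was lost without 1 of them (replicate 3, 1.80, adjusted p = 0.0742). Socs1 shrank by -1.97 ± 0.506 with LPS_hi (adjusted p = 0.00423) and by -2.34 ± 0.622 with LPS_lo (adjusted p = 0.0105, both limma), from 363.1 to 61.5 CPM and from 216.5 to 24.0 CPM. With a pseudocount of 0.25 none of these 4 was called, and with plate as a term 9 were. Without the untreated wells that stood apart, 4 more were called lower, Socs1 (-2.59) and Usp18 (-1.85) with IC and Socs3 with IFNa (-2.28) and TNFa (-1.95). Of the IFNa cultures of 24 h, 4 came from the plate of those wells (mean Socs3 42.4 CPM) and 4 from another (18.2 CPM). Leaving out only its untreated wells therefore leaves plate and IFNa mixed in that call. Without the IC culture that resembled P3C, the Usp18 difference with IC was -2.02 and called (adjusted p = 0.0161, limma), against -1.54 and not called with it. No plate held untreated wells of both 24 and 72 h.

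LPS_hi was the one TLR ligand also sampled at 4 h. With no untreated wells at 4 h, its 7 cultures were compared with the 4 h cultures of 5 other agents, ATP, CCL2, CCL7, nicotine and norepinephrine, averaged over agents, and with untreated wells of 24 h. The share of genes called was 23.8% and 29.3%, and 4 of 6 members were called higher in each. Cish was raised at this time: the 7 cultures ranged from 5.62 to 71.4 CPM (median 52.3), and all cultures of the other agents lay between 0 and 3.38 CPM. The difference was 4.94 ± 0.269 (adjusted p = 3.69e-58, limma). No culture of the other agents reached the filter on low values for Cish, so this test is no independent support for the difference. At 24 and 72 h the mean Cish level with LPS_hi was 1.17 ± 1.61 and 0.359 ± 0.804 CPM (SD, n = 18 and 13), and every culture of those times, at most 5.04 and 2.43 CPM, was below the lowest of 4 h. Socs1 went from 849.1 ± 209.5 CPM at 4 h to 363.1 ± 209.8 at 24 h and 61.5 ± 54.7 at 72 h. Socs3 went from 1532 ± 357.7 to 640.8 ± 333.4 and 167.7 ± 73.7 CPM. Usp18 was 315.6 ± 116.4, 440.4 ± 111.8 and 188.0 ± 58.3 CPM, highest at 24 h. At 4 h the differences from the other agents were 5.85 for Socs1, 5.46 for Socs3 and 4.59 for Usp18, and -1.12 for Socs2, which was not called (adjusted p = 0.063, limma). The Socs2 difference was called without 1 ATP culture (replicate 5, -1.26, adjusted p = 0.0315) and without shallow cultures (-1.67, adjusted p = 0.0044, both limma). Nicotine cultures, 13.6 to 74.6 CPM for Socs2, were the highest of the 4 h conditions for that gene.

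**Figure D3:**
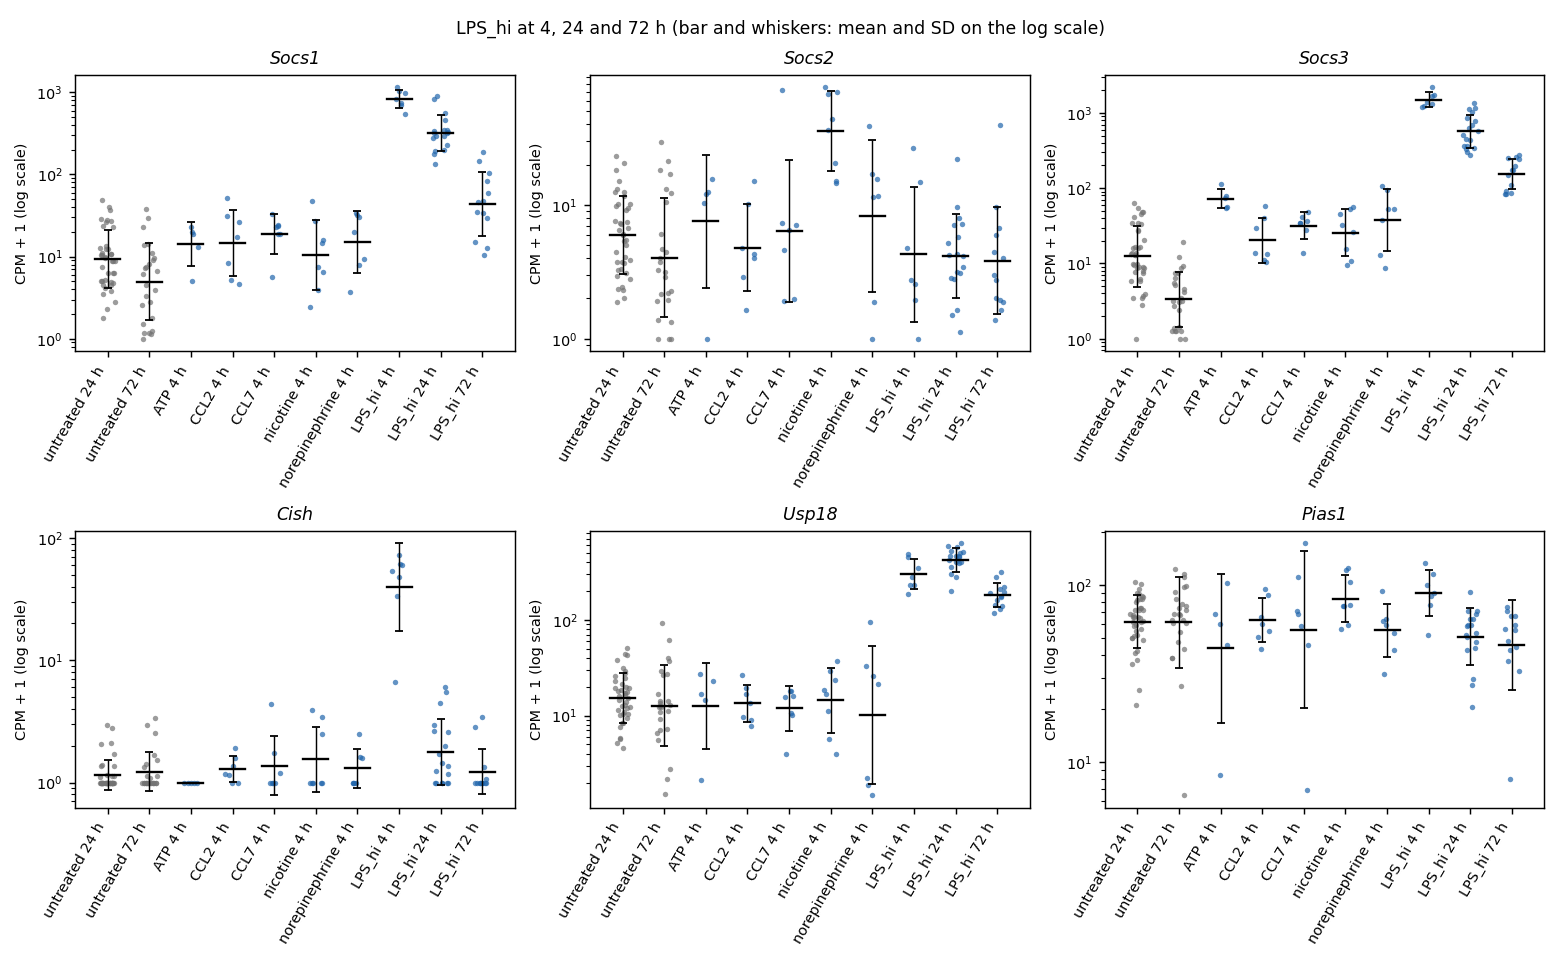
Level of each of the 6 genes, as CPM + 1 on a log axis, in untreated wells (grey), in the 5 other agents of 4 h and in LPS_hi cultures of 4, 24 and 72 h (blue). Points are cultures, and the bar and whiskers are the mean and SD on the log scale. Cish stands between 5.62 and 71.4 CPM with LPS_hi at 4 h and at most 5.04 CPM at 24 h, and Socs1 and Socs3 step down from 4 to 72 h.

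Combinations asked how a second agent changes the response to the first. Over 19 comparisons 3.02% of all gene tests were called, and 12 of 114 member tests were higher and 5 lower. Adding IFNg to LPS_lo for 72 h took Socs1 from 24.0 ± 12.9 to 724.2 ± 233.7 CPM (SD, n = 11 and 7) and Socs3 from 54.3 ± 27 to 204.6 ± 16.7 CPM. The differences were 5.06 ± 0.55 and 2.09 ± 0.487 (adjusted p = 4.36e-16 and 0.00172, limma), and neither group overlapped LPS_lo alone. Adding IL4 to LPS_lo raised Cish from 0.976 ± 1.39 to 14.1 ± 7.0 CPM (SD, n = 11 and 5), a difference of 3.04. It also raised Socs1 by 2.42 and Socs2 by 2.30, and lowered Socs3 by -2.35 ± 0.544 (adjusted p = 0.00201, limma), from 54.3 to 8.92 CPM. With library pool as a term the Socs3 difference was -1.62 and not called (adjusted p = 0.061, limma), and the Socs1 call was lost with a pseudocount of 0.25 (adjusted p = 0.0609). The Socs2 call was lost without either of 2 of the 5 cultures (replicates 2 and 5, 2.15 and 1.69, adjusted p = 0.0589 and 0.357). The mixture of IL4, IL10 and IL13 raised Cish by 3.42 and Socs2 by 3.27 over LPS_lo. Adding IL10, IL13, TGFb or IC to LPS_lo changed no member past the threshold. Socs3 with IL10 added was 100.5 ± 27.8 CPM, a difference of 1.04 with an interval of -0.02 to 2.11.

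Adding IFNg to TNFa at 72 h gave 630.0 ± 249.6 CPM of Socs1 and 105.0 ± 25.3 CPM of Socs3 (SD, n = 8), with 57.0 ± 18.1 CPM of Usp18. Over the 3 TNFa cultures that stood apart these were differences of 8.59, 6.33 and 3.41. Against IFNg alone, which does not rest on those cultures, no member was called, and the interval for Socs1 was 0.07 to 2.48. A lower Socs2 call against TNFa (-1.99, adjusted p = 0.0389, limma) was lost without any one of the 3 TNFa cultures (adjusted p = 0.0763 to 0.111). Adding IFNb to TNFa+P3C+PGE2 took Usp18 from 4.84 ± 4.49 to 285.0 ± 51.6 CPM (SD, n = 7 and 7), a difference of 6.15 ± 0.505 (adjusted p = 4.46e-27, limma), and called no other member.

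At 4 h, Cish with LPS_hi was lower when ATP, nicotine or norepinephrine was also present. Its mean was 46.9 ± 21.8 CPM with LPS_hi alone, 16.4 ± 6.06 with ATP, 13.8 ± 5.52 with nicotine and 15.2 ± 7.37 with norepinephrine (SD, n = 7, 6, 8 and 8). The differences of -1.26, -1.51 and -1.41 (adjusted p = 0.0307, 0.0026 and 0.00416, limma) were not called with a pseudocount of 0.25 or with only the conditions compared, and the groups overlapped only through 1 LPS_hi culture at 5.62 CPM. The other 5 members were not called in these 3 comparisons. Rapamycin, an inhibitor of mTOR, added to LPS_lo for 24 h gave 7.11 ± 5.07 CPM of Cish against 2.37 ± 2.96 (SD, n = 7 and 7), a difference of 1.44 (adjusted p = 0.0245, limma), also lost with a pseudocount of 0.25. CCL2, estradiol, GABA, minocycline and resveratrol added to LPS called no member. Usp18 with resveratrol added to LPS_lo was at 172.4 against 386.6 CPM, a difference of -1.25 that was called with library pool as a term (-1.64, adjusted p = 0.0281) and with a pseudocount of 5 (-1.22, adjusted p = 0.034, both limma).

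Prostaglandin E2 (PGE2) added to P3C was compared after the values had been seen, in 2 comparisons over which 3.97% of all gene tests were called, and 5 of 12 member tests were lower and none higher. Between P3C alone and P3C+PGE2 at 72 h, Socs1 went from 47.2 ± 30.6 to 4.32 ± 4.74 CPM, Socs3 from 89.0 ± 25.5 to 12.9 ± 10.5 CPM and Usp18 from 26.5 ± 15.6 to 3.27 ± 3.45 CPM (SD, n = 6 and 7). The differences were -3.20, -3.32 and -2.89 (adjusted p = 7.67e-05, 1.13e-06 and 1.02e-05, limma). Socs3 did not overlap between the groups. With TNFa also present PGE2 lowered Socs1 by -3.27 and Usp18 by -2.40, while Socs3 was at 53.8 ± 33.9 against 95.3 ± 51.5 CPM and was not called (-0.96, interval -2.01 to 0.10). With only the conditions compared, the Socs1 calls (adjusted p = 0.103 and, with TNFa, 0.244) and the Usp18 call with TNFa (adjusted p = 0.127, all limma) were lost.

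**Figure D4:**
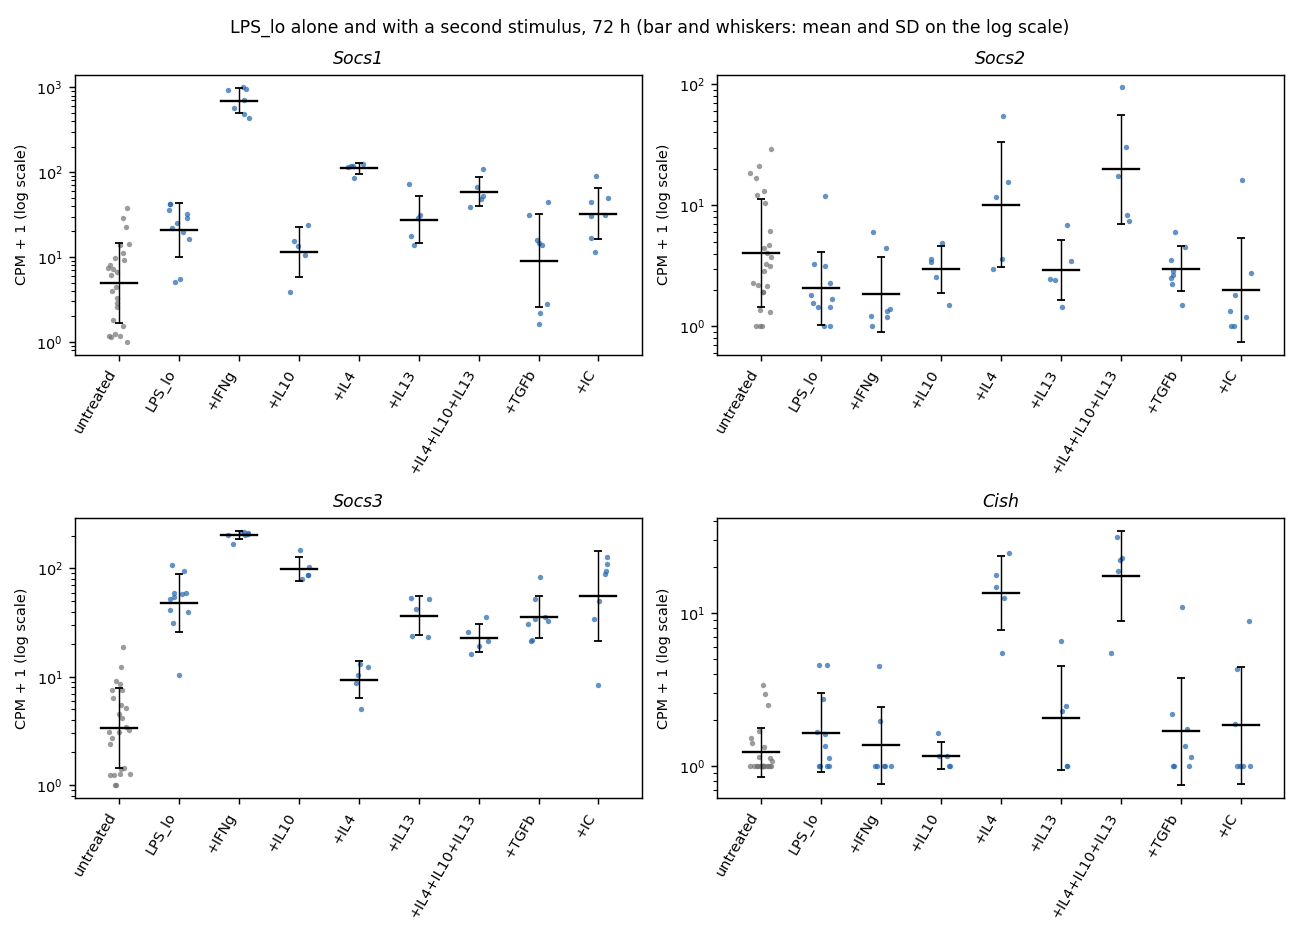
Levels at 72 h, as CPM + 1 on a log axis, of Socs1, Socs2, Socs3 and Cish in untreated wells, with LPS_lo alone and with LPS_lo and a second stimulus. Points are cultures, and the bar and whiskers are the mean and SD on the log scale. Socs1 with LPS_lo+IFNg lies between 435.9 and 994.8 CPM, above every LPS_lo culture, and Socs3 with LPS_lo+IL4 lies between 3.99 and 12.3 CPM.

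The other single agents of the panel, including neurotransmitters, chemokines, lipids and metabolites, moved these genes little. Over 37 comparisons 1.41% of all gene tests were called, and of 222 member tests 1 was called higher and 7 lower. Socs2 was higher with nicotine at 24 h, 17 ± 5.05 against 6.39 ± 5.16 CPM (SD, n = 8 and 40), a difference of 1.55 ± 0.444 (adjusted p = 0.0295, limma). Socs3 was lower with ATP, norepinephrine and PGE2 at 24 h, by -1.88, -1.66 and -1.50, and none of these 3 was called with plate as a term or without the untreated wells that stood apart. Usp18 was lower with HDL (-1.47), PA (-1.37) and PGE2 (-1.17) at 72 h, and Pias1 with MPP (-1.08 ± 0.282, 32.9 ± 18.5 against 68.2 ± 27.7 CPM), its one call in the cultures. With plate as a term, the nicotine call and the PGE2 call for Usp18 remained.

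Other genes of the pathway were counted from 3 lists, receptors (14 genes), kinases and transcription factors (12 genes) and further feedback genes (14 genes). With IFNa at 24 h, 5 kinases and transcription factors, 2 feedback genes and 2 receptors were called higher and none lower, with list medians of 0.52, -0.12 and -0.11 against a median of -0.18 over all genes tested. Stat2, which carries the type I interferon signal, rose by 3.85 ± 0.304, and Isg15, the ubiquitin-like substrate of USP18, by 5.02 ± 0.368. IFNb called 3, 2 and 3 genes higher in those lists and 1 receptor lower, with Stat2 at 3.46 and Isg15 at 4.93. With IFNg the counts were 4, 3 and 4 higher and none lower. Stat3 rose by 2.00, Stat2 by 1.20, Isg15 by 2.88, the phosphatase gene Ptpn2 by 1.37 and the common gamma chain Il2rg by 3.20.

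IL10 raised Stat3, the transducer of its receptor, by 1.45 ± 0.24 and Ptpn1, a phosphatase acting on JAK2 and TYK2, by 1.03. It also raised 3 of 14 receptors, Il4ra (2.56), Csf2rb (1.3) and Csf2rb2 (1.24). IL4 raised Il6st, which encodes gp130, by 1.86 and Ptpn2 by 1.03 and lowered Stat2 by -1.20, and IL13 raised Il6st by 1.57 and lowered Stat2 by -1.01. GMCSF raised Csf2rb, the beta chain of its own receptor, by 1.49 ± 0.218 and Il4ra by 1.06 and lowered Il10ra by -1.11, with no gene of the other 2 lists called. With LPS_hi at 24 h, 5 kinases and transcription factors were higher, among them Stat2 (2.44) and Jak2 (2.31). Isg15 rose by 5.53 and Il2rg by 2.35, while Il6st (-2.07), Ifngr1 (-1.22) and Socs6 (-1.31) fell. With P3C, Isg15 was called at 1.08 and Jak2 at 1.89, with Stat2 not called. P3C called 1 gene higher in each list, and 4 receptors, 1 kinase or transcription factor and 2 feedback genes lower. TGFb called no gene of the 3 lists at either time.

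The levels of the members across conditions were compared as a description, over the 97 condition means of log2(CPM + 1), which share plates, untreated wells and depth. Socs1 and Socs3 had a Pearson r of 0.77, Socs1 and Usp18 of 0.74, Socs3 and Usp18 of 0.64 and Socs2 and Cish of 0.57. Pias1 had r between -0.23 and -0.01 with each of the others. Of all genes tested, the 3 most like Usp18 were Phf11d (r = 0.97), Ifit3 (0.97) and Phf11b (0.96). Those most like Socs1 were Cd40 (0.88), Gbp5 (0.87) and Psme2 (0.87), and those most like Socs3 were Irg1 (0.88), Cd40 (0.87) and Ptgs2 (0.86). Likeness was lower for Socs2 (Pdia4, 0.74, Eps8, 0.70, and Lmod3, 0.70), for Cish (Tfec, 0.70, Ccl7, 0.65, and Clic4, 0.64) and for Pias1 (Arid4b, 0.66, Gm37101, 0.63, and Itgav, 0.63).

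In mice, systemic LPS raised 5 of the 6 genes in microglia within 4 h, and 8.27% of the 9012 genes tested were called. Socs3 was at 4051, 4730, 4782 and 4973 CPM after LPS and at 163.4, 167, 178 and 201.5 CPM after PBS. The difference was 4.70 ± 0.147 (adjusted p = 3.79e-08, limma, n = 4 and 4). Cish was at 73.7, 86.9, 92.2 and 92.3 CPM after LPS and at 1.88, 2.36, 2.97 and 3.77 CPM after PBS, a difference of 4.56 ± 0.184 (adjusted p = 7.63e-08, limma). Every PBS value was under 5 CPM, so Cish passed the filter of 5 CPM in 4 mice only through the LPS mice. Its test is therefore no independent support for the difference. For LPS_hi in culture at the same time, against the other agents, the differences were 5.46 for Socs3 and 4.94 for Cish. They were 5.85 for Socs1 and 4.59 for Usp18, larger than those of the same 2 genes in the mice. Socs2, which was not called higher with LPS_hi in the cultures, was at 105.7, 108, 134 and 134.5 CPM after LPS and at 5.60, 7.91, 9.26 and 9.91 CPM after PBS. Its difference was 3.75 ± 0.191 (adjusted p = 3.06e-07, limma). Socs1 was at 49.6, 53.0, 53.1 and 72.6 CPM against 8.99, 11.4, 11.6 and 16 CPM, a difference of 2.17 ± 0.198. Usp18 was at 31.9, 35.7, 39.7 and 48.5 CPM against 9.57, 12, 12 and 14.4 CPM, a difference of 1.62 ± 0.181 (adjusted p = 0.00011, limma). None of the 5 overlapped between the groups, and the share of all genes without overlap was not counted. Pias1 had 102.7 ± 7.13 against 111.5 ± 21.6 CPM (SD, n = 4 and 4), a difference of -0.10 with an interval of -0.43 to 0.23. The cultures and the mice were not compared by a test.

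Of the pathway lists, 4 of 14 receptors, 4 of 11 kinases and transcription factors and 3 of 14 feedback genes were higher after LPS in the mice and none was lower, with list medians of 0.27, 0.78 and 0.08 against -0.19 over all genes. Il2rg rose by 2.41, Il4ra by 2.16, Csf2rb2 by 1.44, Stat3 by 1.79, Stat2 by 1.55, Jak3 by 1.45, Ptpn1 by 1.62 and Isg15 by 1.16. The sum of 5 neutrophil markers ranged from 74.8 to 152.5 CPM after PBS and from 152.8 to 281.0 CPM after LPS, and that of 3 monocyte markers from 16.9 to 40.01 and from 42.6 to 89.6 CPM. The sum of 6 microglial markers ranged from 28790 to 33700 and from 26580 to 29910 CPM. Oligodendrocyte and astrocyte markers were also present, with lower medians after LPS. The median sum of 3 oligodendrocyte markers was 828.5 CPM after PBS and 374.3 CPM after LPS, and that of 4 astrocyte markers 345.5 and 163.2 CPM. The part of these other cells in the results was not tested.

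**Figure D5:**
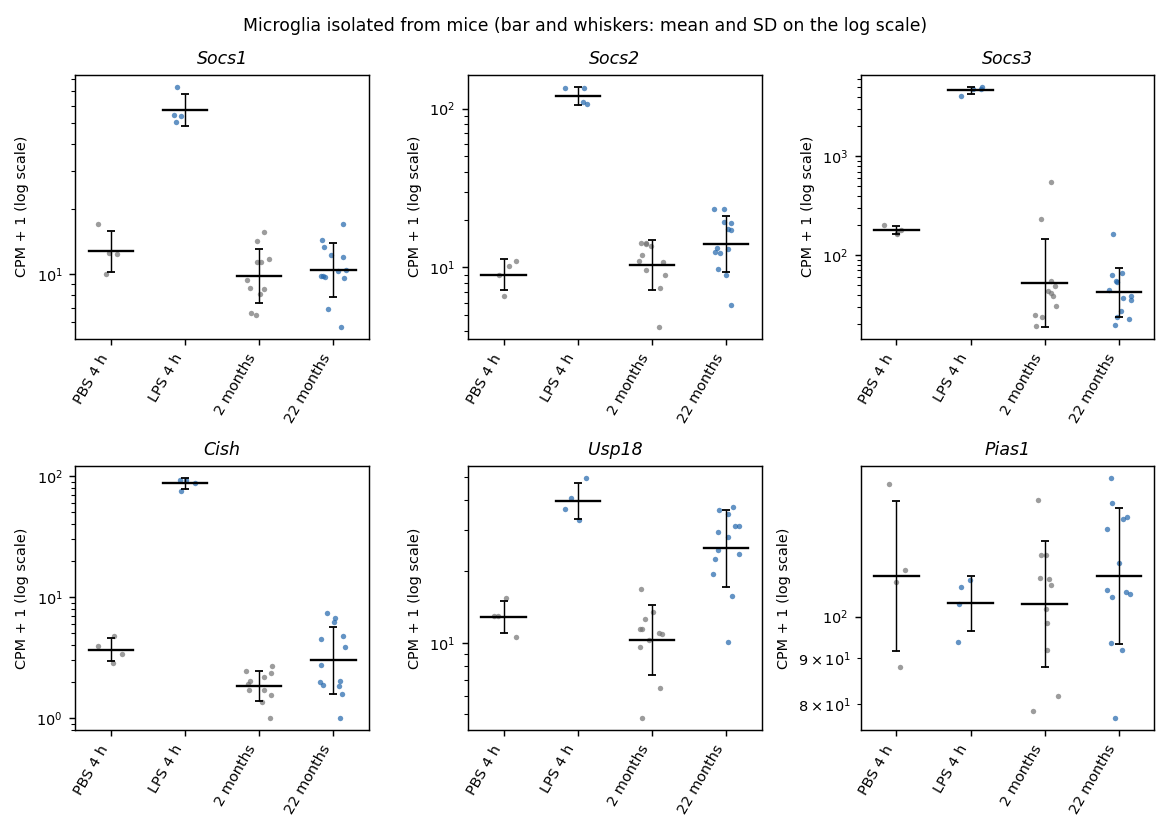
Level of each of the 6 genes, as CPM + 1 on a log axis, in microglia of mice given PBS or LPS for 4 h and of naive mice aged 2 or 22 months. Points are mice, and the bar and whiskers are the mean and SD on the log scale. The groups given PBS and LPS do not overlap for 5 genes, and Usp18 is the gene that is higher at 22 than at 2 months.

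With age, 1 of the 5 members tested was called, where 9.67% of 9632 genes were called at an adjusted p under 0.05 without a minimum difference and with the experiment named in the file header as a covariate. Usp18 ranged from 3.82 to 15.8 CPM at 2 months and from 9.08 to 36.5 CPM at 22 months, with means of 9.80 ± 3.22 and 25.5 ± 8.17 CPM (SD, n = 11 and 13). The difference was 1.25 ± 0.175 (adjusted p = 2.85e-05, limma). The mice came from 2 experiments, each with both ages. Within the second experiment (7 and 9 mice) the means were 10.5 and 29.7 CPM and the call held, and in the first (4 and 4 mice) they were 8.63 and 16 CPM, with a difference of 0.79 that was not called (adjusted p = 0.444). Socs1 (0.07, interval -0.21 to 0.35), Socs2 (0.39, interval 0.11 to 0.67, adjusted p = 0.0909, limma), Socs3 (-0.36, interval -1.17 to 0.45) and Pias1 (0.09, interval -0.10 to 0.27) were not called. One mouse of 2 months had 545.2 CPM of Socs3, more than any of 22 months (at most 164.1 CPM). Cish did not pass the filter on low values and had 0.906 ± 0.501 CPM at 2 months and 2.58 ± 2.15 CPM at 22 months. Stat2 was higher at 22 months by 0.37 and Il2rg by 1.19, and Il6st, Il6ra and the adaptor gene Sh2b3 were lower by -0.34, -0.30 and -0.36. The neutrophil marker sum ranged from 155.2 to 1198 CPM at 2 months and from 350.5 to 4186 CPM at 22 months, the monocyte sum from 31.6 to 99.7 and from 52.4 to 264.6 CPM, and the part of these cells was not tested.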

How the data were processed

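The members, the pathway lists and the comparisons were chosen with earlier results of these data known. Per the study's methods, the authors amplified barcoded cDNA with T7 polymerase, made 3′ end libraries, quantified them with Salmon 0.7.1 on Ensembl transcripts, summed reads per gene and divided by all mapped reads. The deposited values were therefore taken as CPM, although the authors call them TPM, and a test for counts was not used. The submitters' notes name mm8 as the build, which was not used for coordinates. Groups came from the labels. In the deposited tables CPM were transformed as log2(CPM + 1) and fitted with limma 3.58.1 in R 4.3.3, all 784 cultures together (16942 genes above 5 CPM in at least 4 cultures). The 8 LPS and PBS mice (9012 genes) and the 24 naive mice (9632 genes above 5 CPM in at least 11 mice, experiment as a covariate) were fitted apart. Genes were called at a Benjamini-Hochberg adjusted p under 0.05 with an absolute difference of at least 1, except for age, where no minimum was set. Beyond the members, up to 3 called genes of each list with the largest difference and the 3 genes most like each member were named. Alternatives changed the pseudocount (0.25 and 5), the filter, the scaling, plate or library pool as a term, the 107 shallowest cultures (left out), the conditions fitted and single replicates. On simulated data the fit recovered most of 200 genes changed by known amounts. The simulation had normal noise without plate effects, only the IL10 and untreated groups of 24 h, and changes only in genes well above 0. It does not bear on genes near 0, on plates or on the fit of all conditions. Not compared with any other condition were LPS_lo with eotaxin (n = 7), estradiol (n = 9) or norepinephrine (n = 3) and TNFa+PGE2 (n = 8), all at 72 h. Cultures of LPS_lo, TNFa and PGE2 alone did exist at that time. The single culture labelled LPS_hi at the dose of LPS_lo was not compared either.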

Additional observations from a re-analysis of the deposited data

Results flagged for a closer look

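Of 114 sets of values tested, each 1 gene in 1 group of 4 to 10 samples, 16 held a single sample far from the others. Chance alone would give about 1 in 20 if CPM were normally distributed, which was not tested. In the 24 h cultures these were 1 IFNb culture with 89.4 CPM of Socs1 (the next 51.4), 1 GMCSF culture with 102.6 CPM of Socs3 (64.8), 1 LPS_lo culture with 8.64 CPM of Cish (2.53), 1 IL10 culture with 1.46 CPM of Cish (0.195) and the IC culture with 22.5 CPM of Usp18, the next lowest having 300.5 CPM. In the 4 h cultures they were 1 CCL7 culture with 3.38 CPM of Cish and norepinephrine cultures with 1.49 CPM of Cish and 94.3 CPM of Usp18. At 72 h, IL13 cultures reached 31.3 CPM of Cish and 54.8 CPM of Socs2, and an IL4+IL10+IL13 culture 189.3 CPM of Socs2. Among the combinations, 1 LPS_lo+IFNg culture had 168.9 CPM of Socs3, the lowest of its group, and LPS_lo+IL4 cultures had 83.5 CPM of Socs1, the lowest, and 54.1 CPM of Socs2, the highest. An LPS_lo+IL4+IL10+IL13 culture had 93.2 CPM of Socs2 (the next 29.2), and 1 LPS mouse had 72.6 CPM of Socs1 (the next 53.1).

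Responses that differed between 24 and 72 h by limma's test of the difference were Cish with IL4 (2.07, adjusted p = 0.00249) and with IL13 (2.09, adjusted p = 9.89e-05), and Socs1 with LPS_hi (-1.97, adjusted p = 0.00423) and LPS_lo (-2.34, adjusted p = 0.0105).

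A single 72 h culture labelled LPS_hi at the dose of LPS_lo entered no comparison. It had 13.3 CPM of Cish, where untreated wells reached at most 2.37 CPM, and 136.5 CPM of Usp18, where they reached at most 92.4 CPM.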

How the results depend on the processing

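Over the single results, the alternatives listed in the methods left 1518 values with the same direction and side of the threshold, took 106 below it, raised 52 above it and turned 1, Socs1 with TNFa at 72 h, which became 0.37 with library pool as a term. Alternatives chosen after seeing the data left 94 the same, with 10 lost and 6 gained. Calls at 24 h numbered 35, and from 27 (pseudocount 5) to 36 otherwise. At 72 h they numbered 31, and from 26 (only the conditions compared) to 32. The 17 calls in combinations became 11 when only the conditions compared were fitted. The 4 calls of a difference between times became 9 with plate as a term, 0 with a pseudocount of 0.25 and 9 with one of 5, and 8 without the untreated wells of 1 plate, an alternative chosen after seeing the data. The 8 calls with other stimuli became 2 with plate as a term, 5 with a pseudocount of 5 and 5 without those wells. The 5 calls with PGE2 added to P3C became 2 when only the conditions compared were fitted, and the call with age became 0 in the first experiment alone. The cause of these shifts was not tested. Of the 5 calls in LPS mice, all 5 held without any 1 PBS mouse. Without any 1 LPS mouse Cish passed the filter in too few mice to be tested and the other 4 held. Rescaling moved the median of all genes by at most 0.164 (LPS_hi at 4 h). No paired analysis was possible because the labels give no replicate numbers to pair cultures by. Culture plate and library pool were fitted as terms. Levels near 0, as for Cish without stimulus, rest on few reads, so small changes there were not detectable at this depth.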
